A study of Homo sapiens with 78 samples.

Results

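Expression of 10 genes that mark steps of T cell development in the thymus (RAG1, RAG2, DNTT, CD1E, CD2, CD4, CD5, CD7, CD8A and CD27) was measured in single Jurkat cells, with single A375 cells as the background. The members were taken by gene name from the 36713 genes with at least 1 count in a well, and each gene's transcripts were summed per well. Jurkat is a clonal line from a human T cell leukemia, and A375 is a human melanoma line. Both were untreated and sorted by FACS, 1 live cell to a well, with an antibody to CD81 for Jurkat and to CD47 for A375. Jurkat cells were grown in RPMI and sorted into lysis solution, whereas A375 cells were grown in DMEM and sorted into PBS, so the line, its medium and its sort buffer cannot be told apart. Total RNA libraries were made with kit #634413 (18 Jurkat and 21 A375 wells) or kit #634444 (18 Jurkat and 21 A375 wells). Each well is 1 cell and no separate cultures are named, so each group of wells is 1 sample and no test between groups was made. Ranges and SDs describe the spread between wells. The 95% exact Poisson intervals of counts cover counting error only, and PCR copies were not told from molecules. The 95% exact Clopper-Pearson intervals of shares of wells cover only the drawing of wells within a group. Neither kind of interval covers differences between cultures.

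Developing T cells pass through the thymus as CD4-CD8- cells, then as cortical CD4+CD8+ cells, and leave it as CD4+ or CD8+ cells. The RAG1 and RAG2 proteins cut the antigen receptor genes and terminal transferase, the product of DNTT, adds bases at the joints. CD7, CD2 and CD5 are surface proteins that T-lineage cells keep from early stages on, CD1 proteins are found on cortical thymocytes, and CD27 is a receptor of more mature T cells.

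Total estimated counts per well ranged from 413959 to 1443975 in Jurkat (median 887000) and from 909 to 2567265 in A375 (median 718028), with 4 and 5 A375 wells under 200000 counts in the 2 kits. The 8 T cell markers checked (CD3D, CD3E, CD3G, CD247, LCK, ZAP70, LAT and CD28) summed to 764 to 1801 in counts per 1000000 counts of the well (CPM) over the Jurkat wells of kit #634413, and those of kit #634444 had 959 to 2270 CPM, against at most 33.9 CPM in an A375 well. They exceeded the A375 markers (without PRAME, which was at 80.5 and 77.5 CPM in Jurkat) in 18 of 18 Jurkat wells of each kit. One A375 well, with 278553 counts, held 9 counts of T cell markers and 0 of the A375 markers, and 8 other A375 wells, with at most 153648 counts, held 0 of both lists. No member reached 1 count in any of these 8 wells or this well.

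The upstream sequences of the 3 recombination genes are shown because these genes act in 1 reaction and were found in very different shares of Jurkat wells. Each line gives, on the gene's strand, bases 250 to 51 before the gene's start in RefSeq (GRCh38.p14), with matches to the E-box CANNTG, the same on both strands, in capitals. The windows are chr11:36510103-36510302 (plus strand) for RAG1, chr11:36598287-36598486 (minus strand) for RAG2 and chr10:96304184-96304383 (plus strand) for DNTT.
RAG1: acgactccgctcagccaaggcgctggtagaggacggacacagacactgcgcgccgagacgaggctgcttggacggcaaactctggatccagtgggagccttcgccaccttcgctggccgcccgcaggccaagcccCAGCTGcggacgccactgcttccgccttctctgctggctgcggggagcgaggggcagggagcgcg
RAG2: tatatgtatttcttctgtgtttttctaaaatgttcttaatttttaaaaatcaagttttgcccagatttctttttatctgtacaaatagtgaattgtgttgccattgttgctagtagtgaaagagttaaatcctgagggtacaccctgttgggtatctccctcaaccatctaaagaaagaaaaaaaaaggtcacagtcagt
DNTT: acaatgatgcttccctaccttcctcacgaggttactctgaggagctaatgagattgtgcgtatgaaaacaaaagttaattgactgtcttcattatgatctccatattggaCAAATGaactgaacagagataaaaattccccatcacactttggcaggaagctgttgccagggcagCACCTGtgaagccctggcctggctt
The DNTT window held 2 matches to CANNTG, the RAG1 window 1 and the RAG2 window 0, and 54.6% of the 35116 RefSeq windows of this length held at least 1. AGATAA, or TTATCT on the other strand, a GATA motif, was found once each in the RAG2 and DNTT windows and in 7.62% of all windows. RefSeq promoters were at hand for 7 of the 10 members, and CD4, CD5 and CD7 were without one. In GENCODE v44, RAG1 (chr11:36510372-36593156, plus strand) and RAG2 (chr11:36575574-36598279, minus strand) overlap on opposite strands, and the strand-specific libraries were quantified with their strand.

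A group of 5 members was found in nearly all Jurkat cells, and the rest split into genes in part of the cells and genes in few. With at least 1 count taken as detection, DNTT was detected in 34 of 36 Jurkat wells, CD1E in 34, CD5 in 34, CD7 in 35 and CD2 in 33. CD4 was detected in 18 wells, RAG2 in 17, RAG1 in 8, CD27 in 7 and CD8A in 3. In all, 6 of the 10 members were detected in at least 50% of Jurkat wells with kit #634413 (39.5% of all genes tested) and 7 of 10 with kit #634444 (47.9% of all genes tested), where RAG2 was added. With at least 3 counts asked, the members were 5 and 6 in the 2 kits. With at least 10 counts, or with wells thinned to 200000 counts, they were 5 and 5. No share of all genes was computed at these settings. The shares of all genes are over genes with at least 20 counts over both lines of the kit. CD8A, and CD27 with kit #634413, had fewer, so members and genes are not filtered alike. Of the 42 A375 wells, RAG1 was detected in 7, CD4 in 2, CD7 in 2 and CD8A in 1, and the remaining 6 members in 0. All of these detections fell among the 33 A375 wells with at least 200000 counts, whose median was 814261 counts, and 0 of 33 wells allows a share of up to 9.09% of wells by the limit of 3 and of up to 10.6% by the exact interval.

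**Figure D1:**
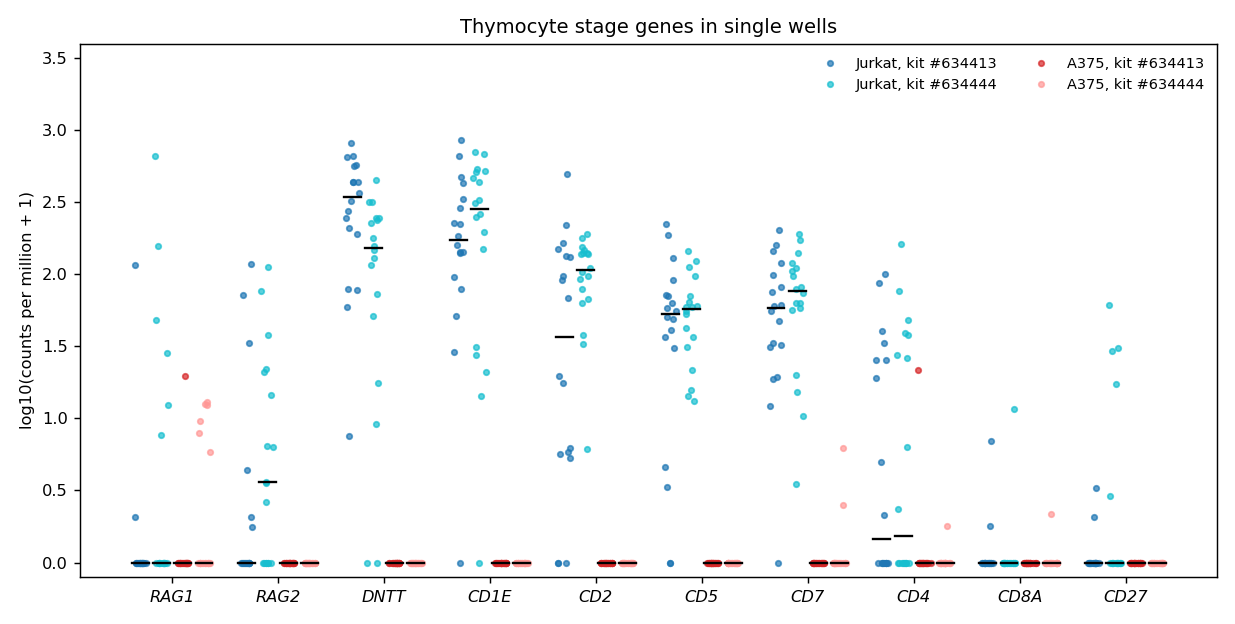
Level of the 10 members in each well, as log10(CPM + 1), with 1 point a well, black bars for group medians, and the 2 lines and 2 kits in colors. DNTT, CD1E, CD2, CD5 and CD7 lie above 0 in 33 to 35 of 36 Jurkat wells, while RAG1, CD8A and CD27 lie at 0 in at least 28 of them, and A375 wells are at 0 for 6 members.

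Of the recombination genes, DNTT was the one held broadly. Its level in the 18 Jurkat wells of kit #634413 was 6.53 CPM at the lowest, 346 CPM at the median and 816 CPM at the highest, with 334 CPM over the pooled wells (326 to 343). With kit #634444 it ran from 0 over a median of 152 CPM to 449 CPM, with 164 CPM pooled (157 to 171). All Jurkat wells of the first kit lay above all A375 wells, which were at 0, and with the second kit 2 Jurkat wells, replicates 13 and 15, were also at 0. Against the floor of 3 counts over the A375 group, DNTT was at least 2019-fold higher in Jurkat with kit #634413 and at least 809-fold higher with kit #634444. The wells at 0 had 525335 and 944466 counts in all, within the range of the other Jurkat wells.

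RAG2 was carried by part of the cells and RAG1 by few. RAG2 counts were found in 6 of 18 Jurkat wells with kit #634413 (33.3%, 13.3 to 59.0) and in 11 of 18 with kit #634444 (61.1%, 35.7 to 82.7). Its pooled level was 11.5 CPM and 14.4 CPM, and its highest wells reached 117 CPM and 112 CPM. The 3 highest wells held 97.7% of its summed CPM with kit #634413 and 75.7% with kit #634444. In A375 RAG2 was at 0, which puts Jurkat at least 69.4-fold and 71.2-fold higher. Both rest much on 1 well: without replicate 2 of kit #634413 the pooled RAG2 level was 5.77 CPM and the bound 34.8-fold, and without replicate 3 of kit #634444 they were 8.60 CPM and 42.4-fold. RAG1 counts were found in 2 of 18 Jurkat wells with kit #634413 (1 count in replicate 1 and 95 in replicate 5) and in 6 of 18 with kit #634444. In these 6 wells RAG1 stood at 6.71, 11.4, 27.3, 47.6, 157 and 658 CPM. The highest, replicate 3 with 535 counts, held 72.5% of the group's summed CPM.

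RAG1 was also the member with most counts in A375. It was found in 1 of 21 A375 wells with kit #634413 and in 6 of 21 with kit #634444, at 4.86 to 18.7 CPM, and both groups of wells overlap. Over the kits, 22.2% of Jurkat wells (10.1 to 39.2, median depth 887000 counts) and 16.7% of A375 wells (6.97 to 31.4, median depth 718028 counts) held RAG1. These intervals overlap, which describes the wells and is no test between the lines. The A375 share counts shallow wells too: its 7 wells with RAG1 were among the 33 with at least 200000 counts, a depth that all Jurkat wells passed. Of 36 Jurkat wells, 5 stood above the highest A375 well, the highest of them 35.1-fold. Pooled RAG1 was 2.09-fold higher in Jurkat with kit #634413 (1.46 to 3.04) and 13.7-fold higher with kit #634444 (10.5 to 18.1). Without replicate 5 the first ratio turned to 0.0228, and without replicate 3 the second fell to 4.6, so both values rest on single wells.

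RAG1 and RAG2 were seen together in 6 of 36 Jurkat wells, RAG2 without RAG1 in 11, RAG1 without RAG2 in 2 and neither in 17. Kit #634444 gave 5 of the 6 shared wells. The well highest in RAG1 (replicate 3 of kit #634444, 658 CPM) also had the highest RAG2 of its kit (112 CPM) and the highest CD4 of all wells (161 CPM). DNTT did not mark these wells: it was present in 15 of the 17 wells with RAG2 and in 19 of 19 without it. With at least 10 counts asked of each gene, RAG1 and RAG2 met in 2 wells, and thinning of each well to 200000 counts left an expected 3.89 wells.

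CD1E, a lipid-binding CD1 protein that stays inside the cell, was the highest member per transcript length. Its level ran from 0 over a median of 172 CPM to 854 CPM with kit #634413, and kit #634444 gave 0, 286 and 709 CPM for the same 3 values. Pooled levels were 253 CPM (245 to 260) and 328 CPM (318 to 337), and 17 of 18 wells of each kit held it. The wells without it, replicate 2 of the first kit and replicate 18 of the second, had 933494 and 1232381 counts. A375 was at 0 in all 42 wells, so CD1E was at least 1525-fold and 1618-fold higher in Jurkat.

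The other CD1 genes, which encode lipid-presenting proteins, were present too. All 5 genes of the family were at least 4-fold higher in Jurkat in both kits and at 0 in all 42 A375 wells. CD1A stood at 65.6 and 83.3 CPM in the 2 kits, CD1B at 57.1 and 59.2, CD1C at 45.3 and 88.5, and CD1D at 33.1 and 34.1. All 5 were detected in 18 of 36 Jurkat wells, 5 wells of kit #634413 and 13 of kit #634444. CD1 genes are close relatives on chromosome 1, and how the quantification divided reads that fit more than 1 of them is not known. Within CD1E, counts spread over transcripts CD1E-212 (32.9% and 21.6% of its counts in the 2 kits), CD1E-213 (15.4% and 28.1%) and CD1E-208 (20% and 19%).

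The pan-T genes CD2, CD5 and CD7 stood at about the same pooled level in both kits. CD2, the adhesion receptor for CD58, had a median of 43 CPM with kit #634413 (0 to 500) and of 107 CPM with kit #634444 (5.15 to 189). CD5, a negative regulator of antigen receptor signals, had medians of 52.2 CPM (0 to 223) and 56.4 CPM (12.2 to 145). CD7, an early T-lineage glycoprotein, had medians of 57.2 CPM (0 to 201) and 75.3 CPM (2.49 to 188). With kit #634444 all 18 wells held all 3 genes. With kit #634413 CD2 was at 0 in 3 wells of 827779 to 1443975 counts, CD5 in 2 wells, and CD7 in 1 well, the shallowest Jurkat well. CD2 and CD5 were at 0 in A375, and CD7 had 4 counts there, in 2 wells of kit #634444. Pooled CD2 was at least 556-fold and 518-fold higher in Jurkat and CD5 at least 362-fold and 285-fold. CD7 was at least 448-fold higher with kit #634413 and 286-fold higher (112 to 1053) with kit #634444.

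Of the coreceptors, CD4 was in 18 of the cells and CD8A in very few. CD4, the coreceptor for MHC class II, was detected in 9 of 18 wells of each kit (50%, 26 to 74), at up to 99.1 CPM with kit #634413 and up to 161 CPM with the other kit, with medians of 0.572 and 0.677 CPM. In Jurkat, 13 of 36 wells exceeded the highest A375 well, which had 20.6 CPM. Pooled CD4 was 11.9-fold higher in Jurkat with kit #634413 (7.94 to 18.4), and with kit #634444, where A375 had 1 count, the ratio was 350 (62.4 to 13854) and fell to 228 without replicate 3. CD8A, a chain of the MHC class I coreceptor, had 8 counts in 2 wells with kit #634413 and 13 counts in 1 well with kit #634444. Its counts were too few for the fold between lines, and 16 and 17 of 18 wells were at 0.

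CD4 without CD8A was found in 17 of 36 Jurkat wells, CD8A without CD4 in 2, both in 1 and neither in 16. The well with both, replicate 16 of kit #634413, had 5 counts of CD4 and 1 count of CD8A. With at least 3 or at least 10 counts asked of both, 0 wells held both, and thinning left an expected 0.09 wells. CD8B, the partner chain of CD8A, was at 0 with kit #634413 and in 3 wells with kit #634444. CD27, the receptor for CD70, was found in 2 of 18 wells with kit #634413 (3 counts) and 5 of 18 with kit #634444 (105 counts), the highest at 60.4 CPM. With kit #634444 it stood at 7.30 CPM pooled, at least 36-fold higher than in A375. Without replicate 15, the highest well, the level was 3.57 CPM and the bound 17.6-fold. Of its counts in that kit, 88.6% lay on CD27-202, a transcript for which GENCODE v44 defines no coding sequence.

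On the scale that accounts for transcript length (TPM, mean ± SD over 18 wells), the order with kit #634413 was CD1E at 174 ± 203, DNTT at 116 ± 80.1, CD7 at 74.2 ± 75.2, CD2 at 40.5 ± 50.5, CD5 at 22.1 ± 30.3, CD4 at 6.15 ± 12.6, RAG2 at 3.43 ± 7.86 and RAG1 at 1.14 ± 4.78 TPM. With kit #634444 it was CD1E at 182 ± 144, CD7 at 59.9 ± 43.9, CD2 at 53.6 ± 36.5, DNTT at 51.9 ± 40.6, CD5 at 15.2 ± 13.5, RAG2 at 9.73 ± 19.9, CD4 at 6.87 ± 11.2, CD27 at 4.98 ± 10.7 and RAG1 at 4.50 ± 14.1 TPM. CD8A was lowest in both kits at 0.0826 and 0.174 TPM. Neighbours in either order differed by less than the larger of their SDs.

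Against all genes, the members stood apart in 1 direction. Pooled CPM was at least 4-fold higher in Jurkat for 7 of 8 members tested with kit #634413 (15% of all genes tested) and for 9 of 9 with kit #634444 (12%). Of the 8 tested in both kits, 7 passed in both (6.77%), the exception being RAG1. No member was at least 4-fold lower, where 29.9% and 25.8% of all genes were in the 2 kits and 18.4% in both. CD8A, and CD27 with kit #634413, had too few counts for this comparison, and the 6 members at 0 in A375 passed the count minimum through Jurkat alone, so these counts are a description. The median log2 fold over all genes was -0.30 and -0.26, so more genes were higher in A375.

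In each single Jurkat well, 4 to 7 members were detected with kit #634413 (median 6) and 5 to 8 with kit #634444 (median 7), against 0 to 2 in A375, where 32 of 42 wells held 0. DNTT, CD1E, CD2, CD5 and CD7 were all detected in 26 of 36 Jurkat wells, and 4 of these 5 in the other 10. In those 10 wells the gene missed was CD2 in 3, DNTT in 2, CD1E in 2, CD5 in 2 and CD7 in 1. No Jurkat well missed more than 1 of the 5.

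**Figure D2:**
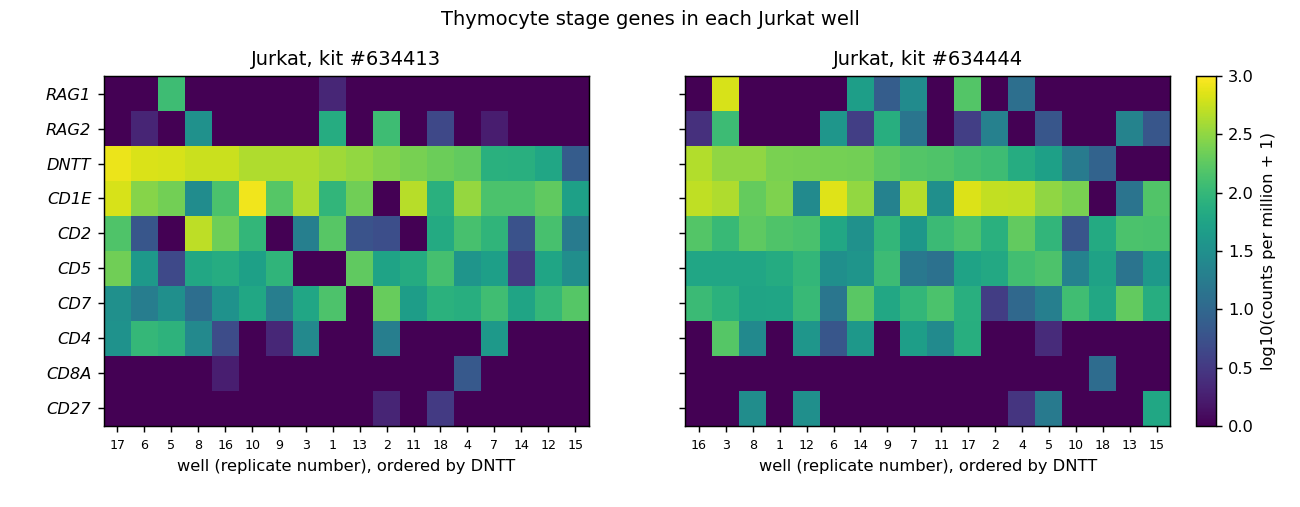
Level of the members in each Jurkat well, as log10(CPM + 1) in color, with wells as columns in order of DNTT and kits side by side. The 5 broadly detected members fill most columns, CD4 and RAG2 about as many as they leave empty, and the 10 wells that miss 1 of the 5 each miss a single gene.

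Evenness between cells was read from the coefficient of variation (CV, the SD over the mean), set beside the CV of genes whose mean CPM lay within 1.5-fold. CD1E and DNTT, the highest members, were uneven for their level. The CV of CD1E was 90.9% and 77.9% in the 2 kits, above 91.1% of 666 and 93.3% of 493 genes at its level. The CV of DNTT was 66% and 78.8%, above 80.9% of 408 and 89.5% of 1154 such genes. RAG1 (420% and 310%) and RAG2 (252% and 185%) also ranked high, above 83.2% to 100% of genes at their level. The rank of RAG1 with kit #634413 fell from 91.8% to 50.6% without replicate 5, whereas with kit #634444 it stayed at 98.6% or above when each well was left out. The rank of RAG2 fell to 61.8% without replicate 2 of kit #634413 and to 73.5% without replicate 3 of kit #634444.

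CD5 and CD7 were among the more even genes or near the middle. The CV of CD5 was 95.8% and 65.4% (above 43% and 28.7% of genes at its level) and that of CD7 81.2% and 66.1% (20.3% and 49.0%). CD2 differed by kit, with a CV of 139% (96%) with kit #634413 and 48.8% (19.1%) with kit #634444. Without replicate 8, which held 31.2% of its summed CPM, the first CV was 111% (66.4%). CD4 was near the middle with kit #634413 (164%, 47.8%) and high with kit #634444 (176%, 95%), where it fell to 151% (70.1%) without replicate 3. Counting error alone would give CVs of 5.50% to 29.4% for DNTT, CD1E, CD2, CD4, CD5, CD7 and RAG2. In all, 5 of 10 members in kit #634413 and 7 of 10 in kit #634444 had a CV above the median of genes at their level, for which 50% is the middle by construction.

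**Figure D3:**
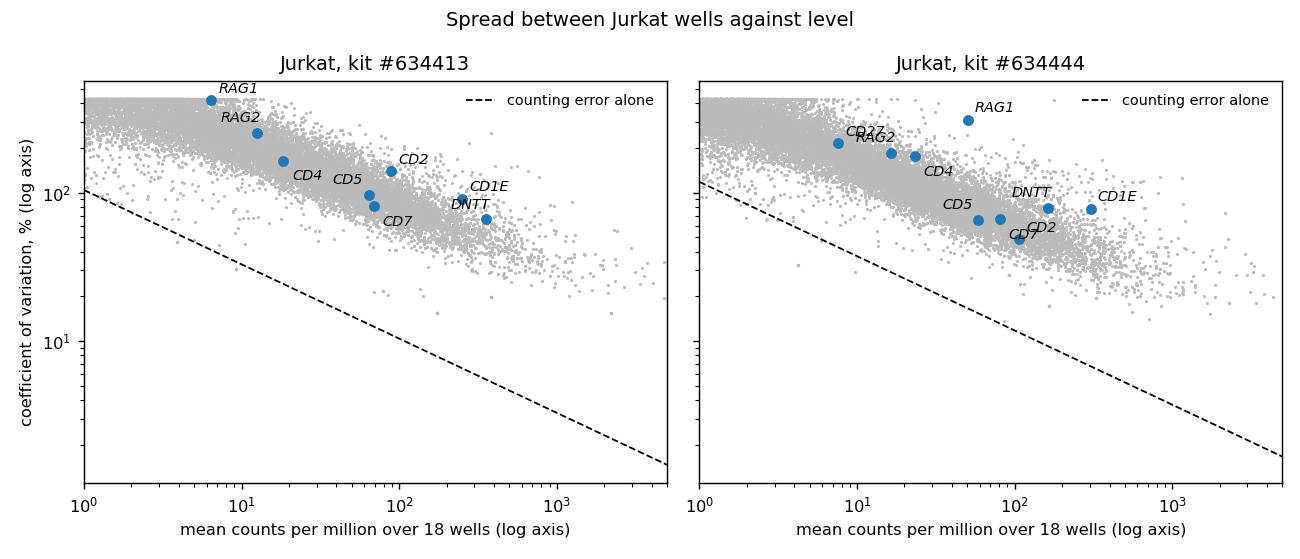
Coefficient of variation over 18 Jurkat wells against mean CPM, both on log axes, for all genes (grey) and the members (blue) in each kit, with the CV that counting error alone would give as a dashed line. CD1E, DNTT and the RAG genes lie in the upper part of the cloud in both kits and CD5 and CD7 in or below its middle.

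Levels of the broadly detected members were weakly related across wells, as a description over 18 wells a kit, in which both levels of a well were divided by the same total. Spearman's rho over the 10 pairs of these 5 genes ran from -0.66 to 0.36 in the first kit and from -0.61 to 0.36 in the second, with medians of 0.07 and 0.06. CD5 and CD7 had a negative rho in both kits (-0.39 and -0.61), as did CD1E and CD7 (-0.36 and -0.37). DNTT and CD7 had -0.66 in 1 kit and 0.00 in the other. CD1E and CD1C had 0.50 and 0.42.

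For each member with at least 10 counts a well on average, the 2 genes most like it across wells were taken from 8188 genes by the smaller of the 2 kits' rho. The closest pair was DNTT and TRBC1, a constant segment of the T cell receptor beta chain, with 0.68 and 0.81. Other values were lower: PXYLP1 for DNTT (0.60 and 0.60), ADSL (0.61 and 0.61) and RABEPK (0.56 and 0.57) for CD2, KBTBD6 (0.56 and 0.60) and MAP4K5 (0.54 and 0.53) for RAG2, ABCE1 (0.60 and 0.56) and ENOSF1 (0.70 and 0.55) for CD5, and ABHD2 (0.54 and 0.61) and NFXL1 (0.71 and 0.52) for CD7. For CD4 they were FAM162A (0.64 and 0.54) and ADGRG1 (0.52 and 0.74), and for CD1E, CEP295 (0.49 and 0.56) and PCYT2 (0.48 and 0.48). These are the highest of many values, and no test was made.

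TRBC1 was detected in 36 of 36 Jurkat wells, at 0.726, 274 and 528 CPM in the lowest, middle and highest well of kit #634413 and at 23.7, 238 and 520 CPM in those of kit #634444. In A375 it reached 50.7 CPM, so the 3 lowest Jurkat values given next lie below that background. The lowest DNTT well of kit #634413, replicate 15 (9 counts of DNTT in 1377992), also had the lowest TRBC1, 1 count. With kit #634444 the 2 lowest TRBC1 wells, replicates 18 (23.7 CPM) and 13 (41.9 CPM), had 8.11 and 0 CPM of DNTT, while replicate 15, with 0 DNTT, had 180 CPM of TRBC1. TRBC2, the near-identical partner segment, which was looked at after these values were seen, had rho of 0.59 and -0.19 with DNTT. Reads shared by TRBC1 and TRBC2 can be divided between them by the quantification.

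**Figure D4:**
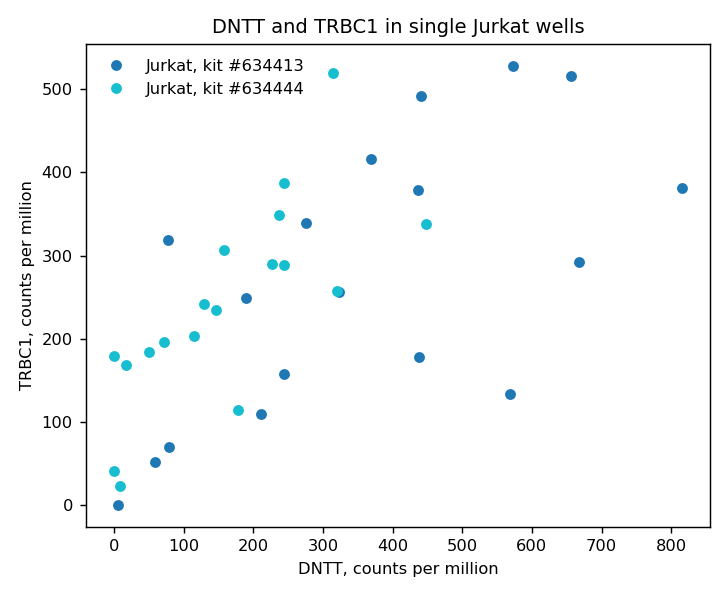
DNTT against TRBC1 in single Jurkat wells, both in CPM on linear axes, with 1 point a well and the kits in colors. Wells low in DNTT tend to lie low in TRBC1 in both kits, with wide scatter and 1 well at 0 DNTT with 180 CPM of TRBC1.

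Between kits, DNTT, RAG1, CD8A and CD27 differed at least 2-fold in pooled CPM in Jurkat. These are 4 of the 10 members, a share near that of all genes tested, 38.9% (20.3% higher and 18.6% lower with kit #634444), and in TPM 5 of 10 differed, RAG2 being the fifth. DNTT was lower with kit #634444, at 0.490 times its level with kit #634413 (0.467 to 0.514), and leaving out replicate 18 of kit #634444 brought the log2 fold from -1.03 to -0.91. Which wells were processed together is not given in the labels. Taken by consecutive blocks of 8 index numbers, with 6 Jurkat wells in each, DNTT in pooled CPM was 277 to 418 CPM in the 3 blocks of kit #634413 and 151 to 175 CPM in those of kit #634444. The index numbers of the kits do not overlap, so kit and index cannot be told apart. RAG1 was 10.3-fold higher (8.30 to 12.8) and CD27 44-fold higher (14.7 to 217) with kit #634444, and CD8A, with 21 counts in all, had a ratio of 2.04 (0.785 to 5.69). Without replicate 3 of kit #634444 the log2 fold of RAG1 fell from 3.36 to 1.79, and without replicate 5 of kit #634413 it rose to 9.88. That of CD27 fell from 5.46 to 4.43 without replicate 15 of kit #634444 and rose to 6.97 without replicate 18 of kit #634413. CD1E, CD2, CD4, CD5, CD7 and RAG2 differed by log2 folds of -0.06 to 0.47. Of these, RAG2 and CD4 rested on single wells: RAG2 ran from -0.42 to 1.32 and CD4 from -0.14 to 0.92 when each well was left out. The RAG1 counts of kit #634413, of which 95 of 96 came from replicate 5, were assigned to RAG1-203, annotated as a target of nonsense-mediated decay, and 99.2% of those of kit #634444 to the coding RAG1-201. In A375 the assignment with kit #634413 went the other way, with 100% on RAG1-201, from 1 well. With kit #634444 the A375 counts were split, with 52.5% on RAG1-201 and 47.5% on RAG1-203.

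The other genes of each stage, from lists chosen with earlier results of these data known, gave the surroundings of the members. Of the 76 listed genes that are no members, 65 were tested in both kits, and 31 were at least 4-fold higher in Jurkat in both, 7 lower and 27 neither, beside 6.77% and 18.4% of all genes. The median log2 fold of the 65 was 2.08 and 2.84.

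Of the 12 early progenitor genes 6 were tested, 1 was higher and 3 lower. NOTCH1, a receptor that sets T cell fate, was higher at 6.67 and 1.3 CPM in Jurkat, in 4 of 36 wells. CD44, an adhesion receptor of early progenitors, was lower, with 4 counts over all Jurkat wells against 601 and 609 CPM in A375. HHEX, a homeobox factor, was lower too, and MEF2C, a transcription factor, had 0 counts in all Jurkat wells. CD34, the progenitor marker, had 0 counts with kit #634413 and 28 in 3 wells with kit #634444.

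Recombination needs general end-joining proteins beside the RAG genes and DNTT. The list of 14 recombination partners holds such end-joining genes and also others, DNA-bending proteins among them. Of these 14 genes, all tested, 1 was at least 4-fold higher in Jurkat in both kits and 0 lower, beside 6.77% and 18.4% of all genes. The higher gene was HMGB2, not an end-joining gene but a DNA-bending protein that helps RAG, at 500 and 541 CPM against 45.4 and 57.8 CPM in A375. The list's median log2 fold was 0.97 and 0.99, against -0.30 and -0.26 over all genes, and HMGB1, another DNA-bending protein that helps RAG, had 1.93 and 2.15.

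Cortical and pre-TCR genes were high. Of 16, 14 were tested, 12 were higher and 0 lower. The list holds RAG1, RAG2, DNTT and 3 CD1 genes, of which all but RAG1 were higher. The rest included the CD3 chains CD3E (290 and 317 CPM), CD3D (128 and 204) and CD3G (118 and 173). CD99, a surface glycoprotein of cortical thymocytes, stood at 369 and 379 CPM, and ARPP21 at 95.2 and 149 CPM. PTCRA, the pre-TCR alpha chain, was near absent, with 12 counts in 4 of 36 Jurkat wells.

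Of the 12 genes of the CD4 and CD8 lineage choice, 10 were tested, 8 were higher, CD4 among them, and 1 lower. LEF1 (694 and 873 CPM), TCF7 (742 and 758), RUNX1 (511 and 491), SATB1 (339 and 310) and BCL11B (264 and 321), all transcription or chromatin factors of T cells, were in 36 of 36 Jurkat wells, as was TOX (135 and 147). ZBTB7B, the factor of the CD4 lineage, was the lower gene, with 0 and 2.50 CPM in Jurkat against 13.5 and 17.9 CPM in A375. Of 13 genes of maturation and exit, 11 were tested, 6 were higher and 0 lower. IL2RG, the common cytokine receptor chain, was at 70.8 and 135 CPM, and CCR7, a chemokine receptor of mature T cells, had 7 counts in 2 wells.

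Of 15 partners of the members, 14 were tested, 6 were higher and 3 lower. LCK, the kinase bound by CD4, was at 157 and 143 CPM in 36 of 36 wells, including those without CD4. SIVA1, which binds the CD27 tail, was at 64.7 and 93.9 CPM, CD6, a relative of CD5, at 66 and 27.6 CPM, and CD48, a relative of CD58, at 24.2 and 41.3 CPM. CD70, the ligand of CD27, had 0 counts in all Jurkat wells and 11.5 and 10.8 CPM in A375. LGALS1, a ligand reported for CD7, was also lower in Jurkat, with 16 counts in 1 well, and CD59 was at 16.5 and 23.4 CPM against 73.9 and 110 CPM.

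**Figure D5:**
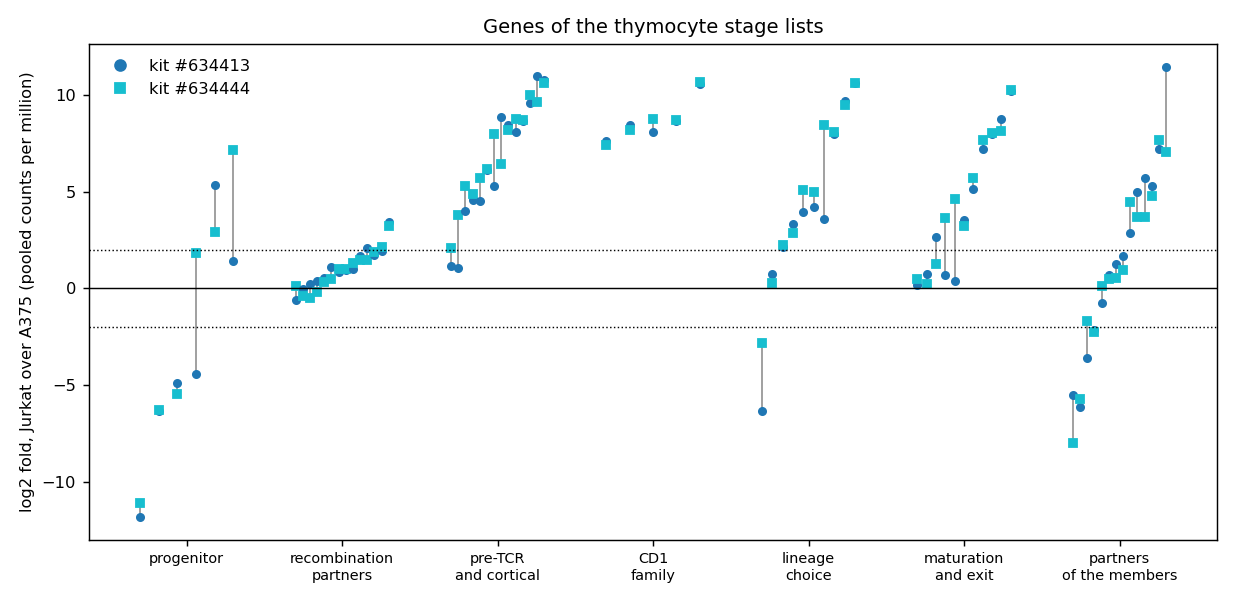
Log2 fold of Jurkat over A375 in pooled CPM for the genes of 7 lists tested in both kits, with a circle for kit #634413 and a square for kit #634444, joined for each gene, and dotted lines at 4-fold. Folds of genes at 0 in 1 line use the floor of 3 counts and are bounds. CD1, cortical and lineage genes lie mostly above the upper line, and the recombination partners mostly between the lines.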

How the data were processed

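Libraries of single FACS-sorted Jurkat and A375 cells (78 wells) took their groups from the line and the kit that the labels state. The authors trimmed reads with cutadapt and quantified Ensembl release 91 transcripts, ERCC spikes and an rDNA unit with kallisto 0.43.1 in stranded mode; the submitters' notes also name STAR 2.5.3. The authors deposited estimated counts per transcript, which are not normalized, and TPM, which the authors' tool derives from those counts and each target's effective length. How reads that fit several targets were divided rests on that tool.

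Here, transcripts were summed per gene with GENCODE v44 (GRCh38), which held 195850 of 200206 Ensembl transcripts. CPM divides a gene's counts by the well's total over the non-ERCC targets. Folds between groups used pooled CPM for genes with at least 20 counts over both groups, with 4-fold between lines and 2-fold between kits. A group at 0 was set to 3 counts, and shares at 0 carry the limit of 3 counts. Levels are given on the CPM scale unless TPM is named. Wells were not screened for doublets and none was left out. The depth (909 to 2567265 counts a well) limits detection of low genes. The 200000-count alternative thins each well by the hypergeometric probability of keeping a count. The statistics were tested on simulated data with known folds. No simulated gene was set absent from a line, so the bounds that rest on the floor of 3 counts were not tested by it. No P-values were computed, since each group is 1 sample.

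The members and lists were chosen with earlier results of these data known. Named genes are the members; of each list, up to 6 genes past 4-fold in both kits with the highest Jurkat CPM and genes at 0 in Jurkat; the 2 genes most like each member; and transcripts with at least 20% of a member's counts. CD34, PTCRA, CCR7, CD8B, PRAME, HMGB1 and TRBC2 were named after their values were seen. Python 3.11.15, pandas 2.3.3, numpy 2.4.6, scipy 1.17.1 and matplotlib 3.10.9 were used.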

Additional observations from a re-analysis of the deposited data

How the results depend on the processing

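Of 63 counts recomputed under other settings, 57 stayed within 1.5 times their value. Jurkat wells with both RAG1 and RAG2 went from 6 to 2 with at least 10 counts and to an expected 3.89 when thinned to 200000 counts (4 with at least 3 counts). Wells with both CD4 and CD8A went from 1 to 0 with at least 3 or 10 counts and to 0.09 when thinned. The number of members past 2-fold between kits was 2 to 4 when each Jurkat well was left out in turn, 3 with means of wells and 5 in TPM. Members at least 4-fold higher in Jurkat stayed at 7 and 9 when wells were left out, and members with a CV above the middle ranged from 5 to 7 and from 7 to 8. Of 125 member folds under TPM, other totals, means of wells, deep wells or no filter, 121 stayed on their side of the threshold. Part of these could not move. For a member at 0 in A375, the floor is scaled so that TPM and means of wells return the main fold. Leaving out the filter also returns the main fold of each member compared. Such comparisons say nothing about stability, and counts of genes past 4-fold under these settings share this limit in part. Of the folds past the threshold in the main setting, 0 changed sign. Within the threshold, CD7 between kits went from a log2 fold of 0.06 to -0.31 in TPM. The 4 that crossed the threshold were RAG1 between lines with kit #634413 (log2 fold 3.47 in TPM and 2.85 as a mean of wells), RAG2 between kits (1.5 in TPM) and CD8A between kits (0.65 as a mean of wells). The cause was not tested. Below 3 counts a gene in a cell is at the limit of these depths. No paired analysis was possible because the labels give no replicate numbers shared by groups and no result comes from a test.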

Other observations

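Genes of the B lineage, a list kept as background, were not all absent from Jurkat. IGLL1, a surrogate light chain gene of early B cells, was detected in 9 of 18 wells with kit #634413 and 13 of 18 with kit #634444, at pooled levels of 41.1 and 48.2 CPM and up to 316 CPM in a well, and was at 0 in all A375 wells. CD79A, a B cell receptor signal chain, was detected in 5 and 9 of 18 wells at 3.20 and 12.3 CPM. MS4A1 and VPREB1 had 0 counts in all Jurkat wells. Of 6 myeloid genes, CD14, ITGAM, LYZ and MPO had 0 counts in Jurkat. TRBV12-3, a variable segment of the receptor beta chain chosen after its values were seen, was detected in 16 and 17 of 18 Jurkat wells, with medians of 104 and 138 CPM, and had a rho with DNTT of 0.53 and 0.35.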
